A study of Mus musculus with 6 samples.

Results

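The genes described here encode the receptors through which acetylcholine, serotonin, dopamine, noradrenaline and opioid peptides act on neurons. They were picked out of the count table by gene symbol, as its Chrm, Chrn, Htr, Drd, Adra, Adrb and Opr genes. The choice gave 53 of the 23306 rows: 5 muscarinic and 16 nicotinic acetylcholine receptor genes, 14 serotonin, 5 dopamine, 9 adrenergic and 4 opioid receptor genes. The questions asked of them were which were present at 1 CPM or more (CPM is the usual count rate, scaled to the total counts of the library) in ribosome-bound RNA, how their levels ranked, and whether they differed after deletion of Fxr1.

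The RNA came from ribosomes pulled down from frontal cortex of male C57BL6 mice in which a parvalbumin-driven Cre (PV-Cre) switches on one haemagglutinin-tagged allele of Rpl22, a ribosomal protein gene (RPL22HA/WT). The libraries compared were wild type for Fxr1 (replicates 2 and 3) or a conditional Fxr1 knockout made with PV-Cre (replicates 1 and 3), where Fxr1 encodes a relative of the fragile X protein that binds RNA. The labels give no age and do not say whether a library was 1 animal or a pool, so p-values measure the spread between libraries, which may be partly technical. Of the 6 samples of the series, 3 per genotype, the 4 whose table column named them alone were used, with 9696126 to 10301280 counts each.

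Most neuromodulator receptors couple to G proteins: Gq raises intracellular calcium through phospholipase C, Gi lowers cyclic AMP and opens potassium channels, and Gs raises cyclic AMP. The nicotinic receptors and the Htr3 type of serotonin receptor are instead ion channels built of 5 subunits. Parvalbumin neurons, the fast-spiking inhibitory cells of cortex, are controlled by these transmitters from brainstem, basal forebrain and local peptide release, and the delta opioid receptor is a known receptor of this cell class.

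In the libraries labelled knockout, Fxr1 measured 18.0 and 18.5 CPM (scaled by the TMM method) against 97.9 and 101.3 CPM in wild type, an edgeR log2 fold change of −2.45 (SE 0.10; adjusted p = 1.77e-15). Rn45s, the precursor of ribosomal RNA, took 0.711% of counts in knockout replicate 1 and 0.283% to 0.315% in the other libraries. Pvalb itself measured 261.7 and 264.0 CPM in wild type against 247.9 and 241.2 in knockout, and Gad1, which makes the transmitter GABA, 4354 and 4295 against 4245 and 4048. All 12 parvalbumin neuron markers listed were at 1 CPM or more and summed to 13500 and 13520 CPM in wild type against 13310 and 13100 in knockout. Markers of other cells were present too. For excitatory neurons 9 of 9 were at 1 CPM or more (sums of 990.1 to 1083 CPM in wild type, 1041 to 1074 in knockout). Camk2a and Cux2 led that sum, with means of 697.6 and 182.2 CPM, while Slc17a7 averaged 79.2. For astrocytes it was 6 of 6 (503.2 to 540.1 and 513.7 to 595.7), where Slc1a2 averaged 472.3 CPM and Slc1a3, the next, 32.7. For striatal projection neurons it was 7 of 10 (134.1 to 134.6 and 141.8 to 144.0; led by Foxp1 and Rgs9). All 6 oligodendrocyte markers were at 1 CPM or more and summed to 288.8 and 261.2 CPM in wild type against 268.7 and 371.4 in knockout. Of these, Mbp, a myelin gene, measured 76.6 and 78.5 CPM in wild type against 74.2 and 103.4 in knockout, highest in knockout replicate 3. Mog alone of the list was highest in another library, wild type replicate 2 (3.92 CPM). For other interneurons, 5 of 6 somatostatin markers (Calb1, Crhbp) and 8 of 10 of the Vip, Lamp5 and related types (Reln, Cnr1) were at 1 CPM or more. The somatostatin markers summed to 119.7 and 145.8 CPM in wild type against 117.2 and 168.9 in knockout. Sums for the Vip, Lamp5 and related types were 278.8 and 289.9 CPM against 243.4 and 272.9. Oligodendrocyte precursor (Pdgfra, Cspg4), microglia (Csf1r, Cx3cr1) and vascular markers (Flt1, Pdgfrb), each list taken separately, summed to at most 18.7 CPM in any library. How much of each receptor signal came from such cells was not tested, and in these bulk pull-downs fewer cells of a type and less RNA per cell cannot be told apart.

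Of the 53 receptor genes, 27 averaged 1 CPM or more over the 4 libraries and 26 did not. This share, 50.9%, stood beside 52.9% for all rows of the table. All 4 opioid receptor genes reached that level, as did 4 of 5 muscarinic, 9 of 14 serotonin, 5 of 9 adrenergic, 2 of 5 dopamine and 3 of 16 nicotinic genes. The lowest gene inside was the kappa opioid receptor gene Oprk1, at a mean of 1.09 CPM, and the highest outside was Adra2a, an alpha-2 adrenergic receptor gene, at 0.959 CPM. Receptor genes together held 740.7 and 747.2 CPM in wild type against 737.5 and 748.7 CPM in knockout, so their total overlapped between genotypes.

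Levels of different genes were compared as RPKM, which divides the CPM by the annotated exon length in kilobases. On that scale the 27 genes had a median of 3.60, against 5.23 for the 12186 rows of 1 CPM or more with a known length, and 11 of the 27 lay above the latter. The 5 highest receptor genes made up 54.8% of the summed receptor RPKM. Most neighbours in the order could not be ranked: the ranges over libraries were apart for 7 of 26 adjacent pairs.

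**Figure D1:**
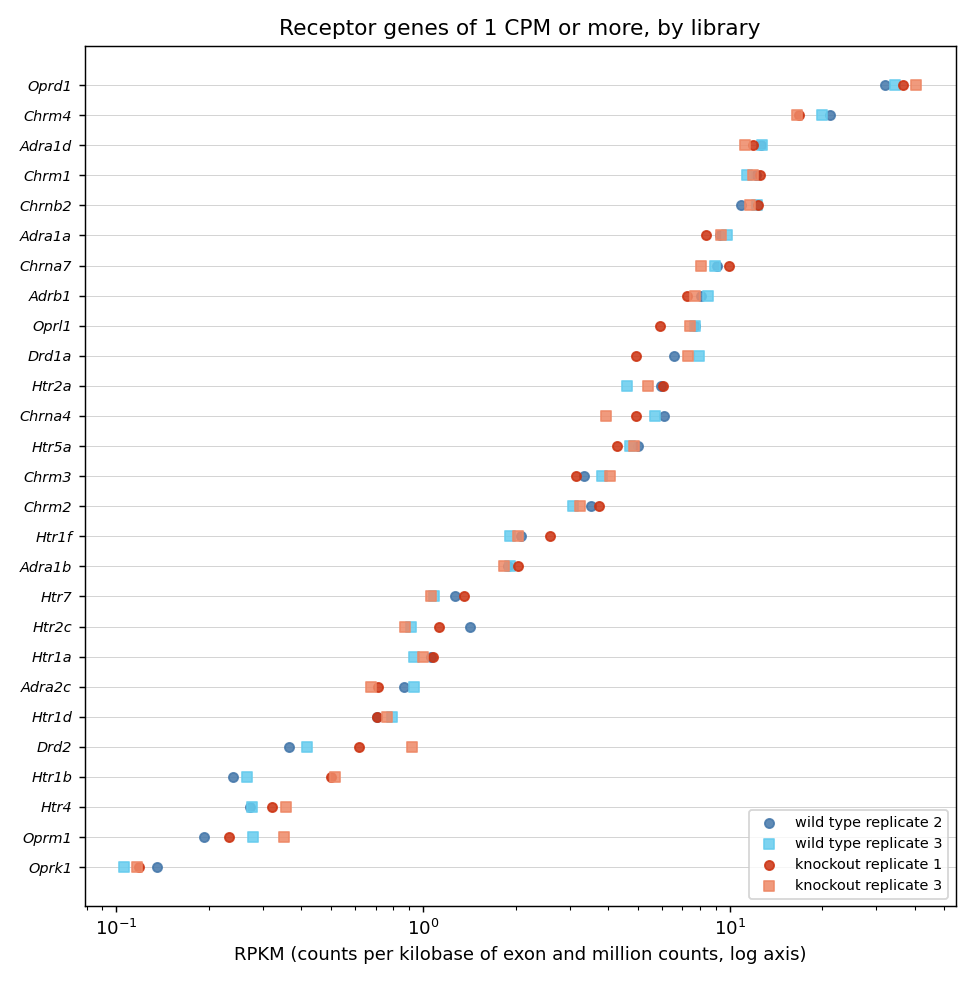
RPKM (log axis) of each receptor gene with a mean of 1 CPM or more, in each of the 4 libraries, ordered by the mean. Oprd1 lies above every other gene in all 4 libraries, and most neighbours in the order overlap.

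Oprd1, the gene of the Gi-coupled delta opioid receptor (mm10 chromosome 4, 132110726 to 132144486, minus strand), was the highest of all. It measured 32.1 and 34.4 RPKM in wild type against 36.7 and 40.4 RPKM in knockout, with 1251 to 1671 counts per library. Its mean of 35.9 ± 3.54 RPKM (SD, n = 4) ranked 1053rd of the 22883 rows with a length, and no library of another receptor gene reached its lowest value. The other opioid receptor genes were far lower. Oprl1, which encodes the nociceptin receptor (chromosome 2, 181715016 to 181720985), measured 7.67 and 7.68 RPKM in wild type against 5.92 and 7.43 in knockout. Oprm1, the mu opioid receptor gene, had 15 and 23 counts in wild type against 19 and 29 in knockout, a mean of 0.263 RPKM. Oprk1 had 12 and 10 counts against 11 and 11, a mean of 0.119 RPKM.

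Among the muscarinic genes Chrm4, which encodes a Gi-coupled receptor (chromosome 2, 91927249 to 91928688), stood highest. Its values were 21.1 and 19.95 RPKM in wild type against 16.7 and 16.6 RPKM in knockout, second to Oprd1. The annotation gives Chrm4 a single exon of 1440 bases, the shortest model of the 27 genes, and any counts from exons outside that model would raise its RPKM. Chrm1, the Gq-coupled receptor best known from excitatory neurons (chromosome 19, 8663789 to 8683587), measured 12.2 and 11.3 RPKM in wild type against 12.5 and 11.9 in knockout. Chrm3 (Gq) measured 3.35 and 3.83 RPKM in wild type against 3.15 and 4.07 in knockout, and Chrm2 (Gi) 3.53 and 3.08 against 3.75 and 3.24. The ranges of Chrm3 and Chrm2 overlapped each other, and Chrm5 had 1 count in 4 libraries.

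The nicotinic signal came from 3 subunit genes. Chrnb2 (chromosome 3, 89746195 to 89764632) and Chrna4 (chromosome 2, 181018380 to 181043546) encode the subunits of the main high-affinity nicotinic receptor of brain, and Chrna7 (chromosome 7, 63098692 to 63212569) forms a channel on its own. Chrnb2 measured 10.9 and 12.2 RPKM in wild type against 12.4 and 11.6 in knockout, and Chrna7 9.07 and 8.92 in wild type against 9.96 and 8.07 in knockout. Chrna4 was lower, at 6.10 and 5.68 RPKM in wild type against 4.96 and 3.95 in knockout. Exons of Chrnb2 share 1365 bases with Adar on the opposite strand, and the library kit is stranded but the strand setting of the counting is not given, so some Chrnb2 counts may belong to Adar. The other 13 subunit genes stayed below 1 CPM. They included the muscle receptor subunits Chrna1, Chrnb1, Chrnd, Chrne and Chrng, with 9, 7, 2, 1 and 0 counts in all. The ganglionic cluster of Chrna3, Chrna5 and Chrnb4 had 10, 17 and 6 counts.

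Of the adrenergic genes, Adra1d and Adra1a, which encode Gq-coupled alpha-1 receptors, were highest. Adra1d (chromosome 2, 131545850 to 131562283) measured 12.65 and 12.73 RPKM in wild type against 11.9 and 11.2 in knockout, Adra1a (chromosome 14, 66635251 to 66771168) 9.28 and 9.79 in wild type against 8.37 and 9.33 in knockout, and the third alpha-1 gene Adra1b 1.89 and 1.92 against 2.04 and 1.84. The order of Adra1d and Adra1a turned with the length used: over the longest transcript in place of all annotated exons, Adra1a had a mean of 18.7 RPKM, next to Oprd1, while Adra1d stayed at 12.1. Chrna7 also moved, from a mean of 9.003 to 14.4. The Gs-coupled beta-1 receptor gene Adrb1 (chromosome 19, 56722199 to 56733113) measured 8.02 and 8.47 RPKM in wild type against 7.24 and 7.67 in knockout. Of the Gi-coupled alpha-2 genes only Adra2c passed 1 CPM, at 0.868 and 0.930 RPKM in wild type against 0.714 and 0.677 in knockout, and Adra2b had 0 counts.

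The serotonin receptor genes were more even. Htr2a, the Gq-coupled receptor on which psychedelic drugs act (chromosome 14, 74640840 to 74709494), measured 5.98 and 4.61 RPKM in wild type against 6.07 and 5.39 in knockout. The Gi-coupled Htr5a (chromosome 5, 27842149 to 27855088) measured 5.03 and 4.71 RPKM in wild type against 4.28 and 4.86 in knockout, and its range overlapped that of Htr2a. Lower in the order were the Gi-coupled Htr1f, at 2.08 and 1.92 RPKM against 2.59 and 2.04, and the Gs-coupled Htr7, at 1.27 and 1.09 against 1.36 and 1.06. Near 1 RPKM stood the Gq-coupled Htr2c, at 1.43 and 0.916 against 1.13 and 0.875, and the Gi-coupled Htr1a, at 1.06 and 0.931 against 1.07 and 0.997. All 4 overlapped between genotypes. The lowest serotonin receptor genes of 1 CPM or more had few counts: Htr1d (Gi) 22 and 26 in wild type against 23 and 25 in knockout, Htr1b (Gi) 11 and 13 against 24 and 25, and Htr4 (Gs) 13 and 14 against 16 and 18. Htr3a, which marks another class of cortical interneuron, had 6 counts in the 4 libraries and Htr3b 1, while Htr2b and Htr5b had 0.

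Among the dopamine receptor genes, Drd1a (now Drd1; Gs-coupled; chromosome 13, 54051183 to 54055705) measured 6.57 and 7.95 RPKM in wild type against 4.93 and 7.31 in knockout. Knockout replicate 1 was the lowest of its 4 libraries. Drd2, which is Gi-coupled and abundant in striatum, was at 0.364 and 0.419 RPKM in wild type against 0.618 and 0.916 in knockout. Drd4 had 26 counts in all, Drd5 9 and Drd3 0. For the 6 genes without a count (Chrng, Htr5b, Drd3, Htr2b, Adra2b and Chrna9), 0 of 40453147 counts allows a level of up to 0.0742 CPM (3 counts, for counting error alone).

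Summed by family, opioid receptor genes held 26.4% of the receptor RPKM, muscarinic 22.8%, adrenergic 19.6%, nicotinic 16.1%, serotonin 10.6% and dopamine 4.57%. Oprd1 alone was 82.6% of the opioid sum, Drd1a 88.8% of the dopamine sum and Chrm4 49.5% of the muscarinic sum. By coupling, Gi-linked receptors held 46.3% (13 of 18 genes at 1 CPM or more), Gq-linked 27.5% (7 of 9), the ion channels 16.1% (3 of 18) and Gs-linked 10.1% (4 of 8). The opioid sum was 40.1 and 42.5 RPKM in wild type against 42.9 and 48.3 in knockout, the muscarinic sum 40.25 and 38.2 against 36.1 and 35.8, and the adrenergic sum 33.3 and 34.2 against 30.6 and 31.0. The other 3 families overlapped between genotypes. Their sums were 26.8 and 27.2 RPKM in wild type against 27.8 and 24.3 in knockout for nicotinic genes. For serotonin they were 18.4 and 16.1 against 18.4 and 16.9, and for dopamine 7.2 and 8.6 against 5.9 and 8.4. Of all single genes tested, 30.1% did not overlap between genotypes. No test was made of the sums. The shares turned with the length used: over the longest transcript, the order was opioid (23.9%), adrenergic (22.5%), muscarinic (20.8%), nicotinic (18.9%), serotonin (9.76%) and dopamine (4.01%), with adrenergic above muscarinic. Over that length the opioid sums overlapped between genotypes (42.3 and 44.85 RPKM in wild type against 44.83 and 50.8 in knockout).

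**Figure D2:**
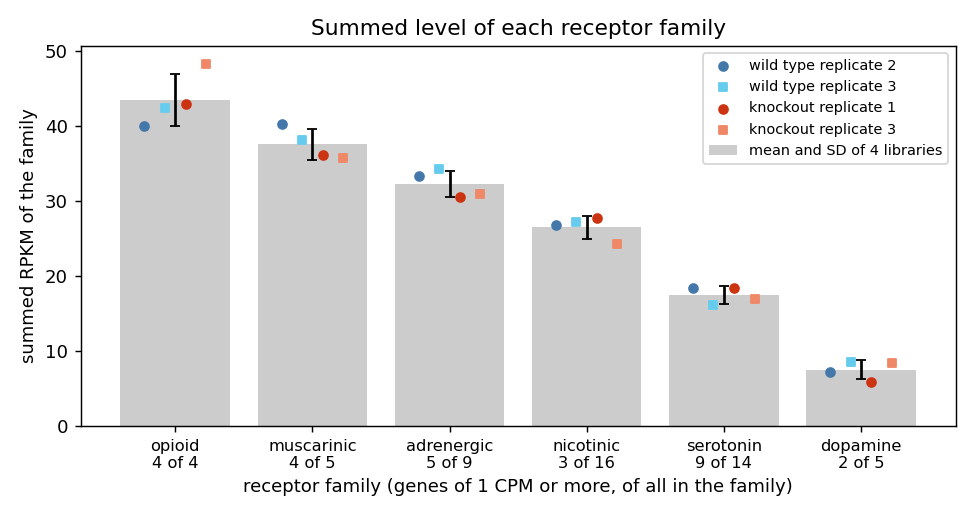
Summed RPKM of each receptor family, with bars and error bars for the mean and SD of the 4 libraries and points for single libraries. With exon length as drawn, the opioid mean (43.5) is highest and the dopamine mean (7.53) lowest. Over the longest transcript the adrenergic and muscarinic means change places.

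The sequence before the start site was read for the 40 receptor genes that have an entry in RefSeq's table (GRCm38.p6), since the dinucleotide CG marks the promoters of many broadly active genes. Counted over the 250 bases before the start (both strands are alike for CG; the window richest in CG where a gene has several), the 22 genes of 1 CPM or more had a median of 12.5 CG and the 18 genes below it 6.5. At least 20 CG were found in 36.4% of the former and 22.2% of the latter, against 41.9% and 7.35% of all rows above and below 1 CPM and 19.7% of all symbols in the table. Shown are the highest receptor gene and, of the genes with 0 counts, those with the most and the fewest CG, with each CG in capitals.
Oprd1 (chr4:132144487-132144736, minus strand): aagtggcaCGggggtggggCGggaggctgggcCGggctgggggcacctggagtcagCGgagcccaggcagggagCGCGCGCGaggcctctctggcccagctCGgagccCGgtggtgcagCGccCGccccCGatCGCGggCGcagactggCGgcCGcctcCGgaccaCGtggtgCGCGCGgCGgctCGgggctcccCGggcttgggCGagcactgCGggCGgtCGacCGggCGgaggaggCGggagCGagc
Adra2b (chr2:127362929-127363178, plus strand): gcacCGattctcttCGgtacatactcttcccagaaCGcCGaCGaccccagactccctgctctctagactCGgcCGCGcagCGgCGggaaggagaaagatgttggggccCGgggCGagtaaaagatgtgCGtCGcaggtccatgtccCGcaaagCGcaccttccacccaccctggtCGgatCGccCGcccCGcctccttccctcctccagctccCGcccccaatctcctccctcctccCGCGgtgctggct
Drd3 (chr16:43761971-43762220, plus strand): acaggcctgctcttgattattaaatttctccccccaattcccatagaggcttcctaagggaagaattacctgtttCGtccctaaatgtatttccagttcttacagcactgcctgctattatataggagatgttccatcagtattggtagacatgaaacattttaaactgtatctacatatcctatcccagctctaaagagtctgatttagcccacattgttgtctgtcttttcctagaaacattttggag

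These windows hold 34, 23 and 1 CG. The Drd3 window lies inside the Drd3 gene as annotated for the levels (43754026 to 43822932), so it does not precede the start of that model. Adra2b, without a count, is richer in CG than the windows of several well-covered receptor genes, such as Chrnb2 (10), Htr2a (4) and Oprl1 (3). Other well-covered genes are richer than Adra2b, such as Oprd1 (34), Chrm4 (26), Chrna7 (25), Adrb1 (24) and Chrna4 (24).

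The knockout comparison asked whether loss of Fxr1 changed these receptor transcripts. After a filter on low counts, 28 receptor genes were tested among 12449 genes: the 27 above and Adra2a. None passed (0 of 28, adjusted p = 0.998 for each by edgeR), where 0.0321% of all genes tested passed, and 0 passed by DESeq2 or limma voom. Of the 28, 16 were higher and 12 lower in knockout, with a median log2 fold change of 0.01, against −0.0015 and 49.6% higher over all genes tested. Both knockout libraries lay outside the wild type range for 10 genes, 4 higher and 6 lower. That share of 35.7% is near the 30.1% of all genes tested and is no result about receptors.

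An unadjusted p under 0.05 was reached by 5 of the 28 genes (17.9%), against 3.23% of all genes tested. The number was 4 by limma voom (3.08% of all genes), 2 by DESeq2's Wald test (0.707% of all genes), 2 with wild type replicate 2 left out (3.71%) and 2 with knockout replicate 3 left out (5.68%). The 5 were Chrna4, Oprd1, Chrm4, Htr1b and Drd2. None can be called changed, and with 2 libraries against 2 the smallest two-sided p of an exact permutation test on a single gene is 0.333.

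**Figure D3:**
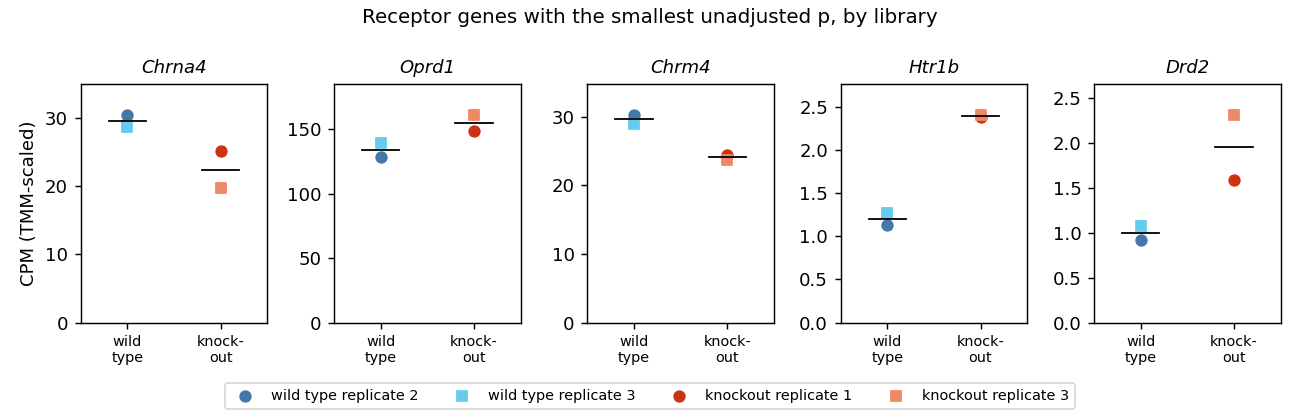
TMM-scaled CPM of the 5 receptor genes with the smallest unadjusted p in each library, with lines at the genotype means and axes from 0. In each panel the knockout points are clear of the wild type points, lower for Chrna4 and Chrm4 and higher for Oprd1, Htr1b and Drd2.

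Chrna4 had the smallest p. It measured 30.5 and 28.7 CPM in wild type against 25.1 and 19.7 CPM in knockout, where replicate 3, the library with the highest Mbp, was the lowest. A link between that marker and the Chrna4 values was not tested. The log2 fold change was −0.40 (SE 0.13, 95% interval −0.67 to −0.13; unadjusted p = 0.00499, adjusted p = 0.998 by edgeR). It was −0.59 without knockout replicate 1 (adjusted p = 0.0659 by edgeR, the lowest of 11 alternatives that reached up to 1) and −0.23 without knockout replicate 3. Its partner Chrnb2 overlapped between genotypes, with 90.6 and 103.3 CPM in wild type against 104.7 and 96.6 CPM in knockout (log2 fold change 0.05, SE 0.09, interval −0.13 to 0.23; adjusted p = 0.998 by edgeR). The sign of that small value turned when wild type replicate 2 or knockout replicate 1 was left out (−0.035 and −0.0064). Chrna7 overlapped too, with a log2 fold change of 0.0046 (SE 0.11, interval −0.23 to 0.24).

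Oprd1 measured 128.3 and 139.4 CPM in wild type against 149.0 and 161.2 CPM in knockout, so that all 4 libraries fell in order of genotype. Its log2 fold change was 0.21 (SE 0.08, interval 0.05 to 0.38; adjusted p = 0.998 by edgeR). The upper end of that interval is below a 1.5-fold rise. Oprl1 went the other way, at 28.6 and 29.0 CPM in wild type against 22.5 and 27.7 in knockout (−0.20, SE 0.13), and was lowest in knockout replicate 1. Oprm1 (0.30, SE 0.39) and Oprk1 (−0.03, SE 0.52) had too few counts for a narrow interval.

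Chrm4 measured 30.3 and 28.9 CPM in wild type against 24.35 and 23.74 CPM in knockout. The libraries of each genotype lay close together and apart from the other genotype, with a log2 fold change of −0.30 (SE 0.12, interval −0.55 to −0.05; adjusted p = 0.998 by edgeR). The other muscarinic genes overlapped between genotypes, with log2 fold changes of 0.05 (SE 0.09, interval −0.13 to 0.23; adjusted p = 0.998 by edgeR) for Chrm1, 0.09 (SE 0.14) for Chrm2 and 0.01 (SE 0.14) for Chrm3.

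Htr1b and Drd2 had the largest fold changes and few counts. Htr1b, a receptor known for its place on axon terminals, had 11 and 13 counts in wild type against 24 and 25 in knockout, or 1.13 and 1.27 against 2.39 and 2.41 CPM. Its log2 fold change was 0.99 (SE 0.41, interval 0.14 to 1.84; adjusted p = 0.998 by edgeR). Exons of Htr1b share 852 bases with the noncoding gene D430036J16Rik on the opposite strand. Drd2 had 9 and 11 counts in wild type against 16 and 24 in knockout (0.96, SE 0.46, interval 0.01 to 1.91; adjusted p = 0.998 by edgeR), and knockout replicate 3 was its highest library.

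Beside Drd2, 6 of 7 tested markers of striatal projection neurons were higher in both knockout libraries (14.9% of all genes tested were) and 1, Rarb, was lower in both (15.2%). Ppp1r1b measured 11.4 and 12.2 CPM in wild type against 16.8 and 13.9 in knockout, Penk 10.2 and 10.1 against 13.1 and 13.2, and Adora2a 1.33 and 0.978 against 2.09 and 2.41. Rarb measured 22.1 and 22.5 CPM against 17.5 and 19.7. The smallest of the 6 rises were those of Foxp1 (log2 fold change 0.06, SE 0.10) and Rgs9 (0.10, SE 0.12). None of these passed (adjusted p = 0.998 for each by edgeR). Drd1a, the other main dopamine receptor gene of striatum, had the opposite sign, with 23.7 and 29.0 CPM in wild type against 18.1 and 26.3 in knockout (−0.25, SE 0.16). Of the list's 10 genes none was at 0 in all libraries, though Isl1 had 0.149 CPM on average. The genes of the list with too few counts to be tested did not share the rise. Gpr6 was lower, with 6 and 5 counts in wild type against 2 and 2 in knockout. Pdyn (5 and 6 against 7 and 4) and Isl1 (2 and 0 against 2 and 2) overlapped. Mbp was highest in knockout replicate 3, as Drd2 was. The part of these markers in the Drd2 values was not tested.

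Among the remaining receptors, 3 adrenergic genes of 6 tested were lower in both knockout libraries (15.2% of all genes tested were) without passing: Adra1d (−0.14, SE 0.13, interval −0.40 to 0.12; adjusted p = 0.998 by edgeR), Adrb1 (−0.14, SE 0.12) and Adra2c (−0.37, SE 0.33). Adra1a, at 80.5 and 86.0 CPM in wild type against 73.8 and 80.9 in knockout, overlapped (−0.11, SE 0.09). Htr2a overlapped as well (0.12, SE 0.13), and so did Htr5a (−0.09, SE 0.12) and Htr2c (−0.22, SE 0.21). The precision followed the counts: the median SE was 0.126 for the 16 genes of 10 CPM or more and 0.371 for the 12 genes below it, so the intervals of the latter were wide.

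**Figure D4:**
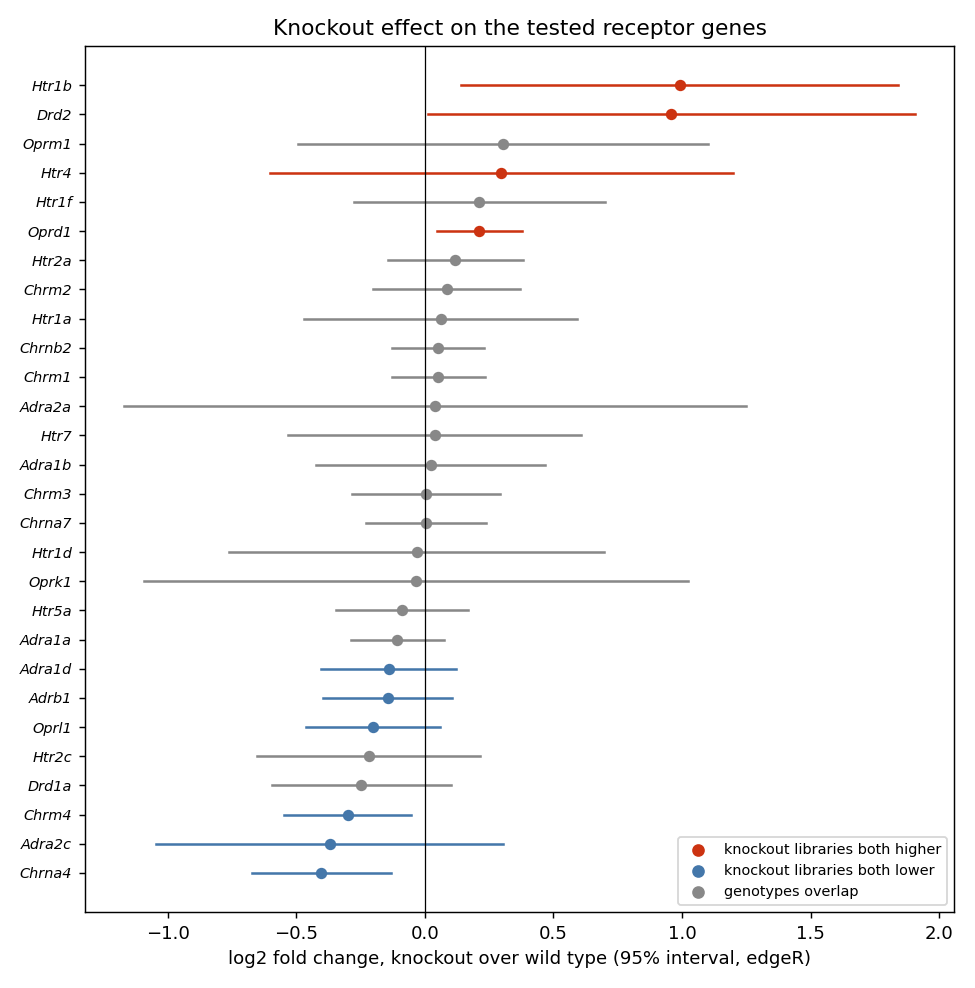
Log2 fold change of knockout over wild type with its 95% interval (edgeR) for the 28 tested receptor genes, coloured by whether both knockout libraries lay above, below or within reach of wild type. The intervals of 5 genes leave out 0 before adjustment for multiple tests, and those of genes with few counts, such as Adra2a and Oprk1, are the widest.

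The proteins that carry the receptor signals were measured in the same fit. Of 18 G protein subunit genes 12 were higher and 6 lower in knockout (median log2 fold change 0.07) and 0 passed. The smallest p belonged to Gng7 (0.17, SE 0.09), Gnai2 (0.23, SE 0.12) and Gnb5 (−0.13, SE 0.09). Of 31 genes for downstream enzymes and potassium channels 13 were higher and 18 lower (median −0.01), 0 passed, and the smallest p belonged to the cyclase gene Adcy3 (−0.15, SE 0.09) and the phosphodiesterase gene Pde1a (−0.18, SE 0.12). Among receptor kinases, arrestins and RGS proteins, which end the signal, 10 of 19 were higher and 0 passed, with Grk5 (−0.22, SE 0.16), Arrb1 (0.11, SE 0.09) and Rgs12 (0.28, SE 0.26) first by p. All 3 lists had 0 genes with an unadjusted p under 0.05.

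Accessory proteins of nicotinic receptors also did not pass (0 of 8; 3 higher, 5 lower). The brake Lynx1, at 557.3 and 563.5 CPM in wild type against 619.2 and 599.4 in knockout (0.12, SE 0.07), was abundant. Lypd6, which binds nicotinic receptors, was at 35.3 and 32.65 CPM in wild type against 28.32 and 28.95 in knockout (−0.25, SE 0.11; unadjusted p = 0.0404, adjusted p = 0.998 by edgeR). Lypd1, of the same protein family, was at 3.59 and 4.01 CPM against 6.26 and 4.535 (0.50, SE 0.27). Genes that make, load or take back the transmitters themselves were few at 1 CPM or more (6 of 20): Chat had 1 to 7 counts per library, Tph2 5 to 13, and the transporter genes Slc6a3 and Slc18a2 0 in all 4. Of 8 tested genes for transmitter synthesis, transport and breakdown 0 passed, with Slc29a4 (−0.28, SE 0.27), Ache (−0.12, SE 0.12) and Th (−0.35, SE 0.37) first by p. Of the opioid peptide precursors, Penk (0.38, SE 0.17) and the nociceptin precursor gene Pnoc (−0.21, SE 0.19) were tested and did not pass, and Pdyn and Pomc averaged 0.544 and 0.365 CPM.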

How the data were processed

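The deposited table holds whole-number counts by gene symbol, which the authors did not normalize. The submitters' processing notes name STAR and mm10. No version, counting tool, annotation or strand setting was given in the sources used here. Columns were matched to samples by title. Of 6 columns 2 were not used, because they bear the same title, which left 2 libraries per genotype of the 3 the design foresaw. Replicate numbers are accession order.

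CPM and RPKM were computed from column totals and the exon lengths of GENCODE M21 (mm10), by symbol, with 53 of 53 receptor genes matched. Knockout was tested against wild type in R 4.3.3 with edgeR 4.0.16 (filterByExpr, TMM, robust quasi-likelihood fit; Benjamini-Hochberg adjustment over 12449 genes; threshold 0.05), after a check on simulated data. CPM in that comparison are TMM-scaled. Alternatives were DESeq2 1.42.0, limma 3.58.1, other scalings, filters and lengths, and leaving out each library. Libraries differed by more than sampling noise (chi-square per degree of freedom 2.90 to 6.00). The largest value was between the knockout libraries and the smallest between wild type replicate 3 and knockout replicate 3. The wild type libraries gave 3.52 against each other. Named were all receptors of 1 CPM or more, with fold change, SE and adjusted p for the 5 smallest p and the 5 highest RPKM; of pathway lists up to 3 genes of smallest p; of marker lists the 2 highest by CPM; and Fxr1, Pvalb and Gad1. Some genes this rule would name are not reported here. Other markers named were chosen after their values were seen. Members and lists were chosen with earlier results of these data known.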

Additional observations from a re-analysis of the deposited data

How the results depend on the processing

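The count of 0 changed receptor genes held under all 11 alternatives of the fit, and Fxr1 passed in each (log2 fold change −2.47 to −2.42). Leaving out single libraries gave log2 fold changes of −0.59 to −0.23 for Chrna4, 0.15 to 0.27 for Oprd1, −0.33 to −0.26 for Chrm4, 0.91 to 1.08 for Htr1b and 0.66 to 1.20 for Drd2. Chrnb2 turned to −0.035 without wild type replicate 2 and to −0.0064 without knockout replicate 1; the cause was not tested. Over all genes, 4 calls became 1 with library totals, 2 by DESeq2's Wald test, 13 with no filter on low counts, and 9 to 48 when libraries were left out in turn, where a lone library is assumed to vary like the other genotype. The 27 receptors of 1 CPM or more became 25 when each library had to reach it, 30 at a mean of 0.5 CPM, 23 at 2 CPM, and 27 to 28 with a library left out (gaining Adra2a). Oprd1 averaged 34.4 to 37.2 RPKM with a library left out, and Chrnb2 15.4 RPKM over its longest transcript. The count of receptors with an unadjusted p under 0.05 and the family sums over the longest transcript were added after seeing the data. No paired analysis was possible because labels give no replicate numbers. Below about 10 CPM, counting error limits what could be seen.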

Other observations

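Set against its partner, Chrna4 stood at 0.561 and 0.464 of the Chrnb2 RPKM in wild type replicates 2 and 3 and at 0.401 and 0.340 in knockout replicates 1 and 3. The ratio of Oprd1 to Chrm4, the 2 highest receptor genes by RPKM over all annotated exons, was 1.52 and 1.73 in wild type and 2.19 and 2.43 in knockout. Both ratios were chosen after the values of these genes were seen and were not tested.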
